A study of Mus musculus with 12 samples.

Results

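The genes described here are 38 genes that copy DNA, without the subunits of the MCM helicase. They were taken from a fixed list of origin licensing, polymerase, clamp loader, nucleotide synthesis and chromatin assembly genes. That list was chosen with earlier results of these data known, and every probe set annotated to these genes alone was used. Of the 38, 36 had a probe set that names them alone, with 58 probe sets in all out of 22690 on the array. Chaf1a and Gins2 had no such probe set and have no value here. The 36 genes are part of 12393 named genes on the array.

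RNA was measured on 12 single-color arrays, and each value below is a probe set signal after scaling, in intensity units. The 3 breast cancer cell lines were ME-B-T/t, which the labels call retransformed, ME-B, which they call a revertant, and ME-A, with 1 array each. The 9 tissue arrays held 3 WAP-SVT/t breast tumors, 3 WAP-SVT/t mammary glands at the start of lactation and 3 glands of NMRI mice at the same day. All tissues were from female mice of the NMRI strain, and the tumors and WAP-SVT/t glands share the transgene. It places the simian virus 40 T and t antigens under the promoter of Wap, a milk protein gene, so that mammary epithelial cells make them. The tissue was ground whole, so the RNA is that of all its cell types, and fewer cells of a type cannot be told apart from less RNA per cell. The study counts 3 mice in each gland group, and whether the tumors came from separate mice is not given in the sources used here.

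DNA replication starts at origins that the origin recognition complex marks and that CDC6 and CDT1 load with helicase, a step called licensing. A kinase made of CDC7 and DBF4 fires the origins, CDC45 and GINS complete the helicase, and primase with polymerase alpha starts each strand. Polymerases delta and epsilon then extend the strands on the PCNA clamp, which the RFC complex loads, while RPA coats the single strands, FEN1 and LIG1 join Okazaki fragments and other enzymes supply nucleotides and histones. Many of these genes are known targets of E2F factors, which the RB protein holds back, and large T antigen is known to bind RB.

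To show what the regulatory sequence of the genes holds, windows of 300 bases around the transcription start, 250 bases before it and 50 from it on, were taken from RefSeq on build GRCm38.p6 for 32 of the 38 genes, 38 windows in all. An E2F motif, spelled TTTCCCGC, TTTCGCGC, TTTGCCGC or TTTGGCGC on either strand, was in 8 of the 38 windows, or 21.1%, against 2.26% of all 32851 windows of that length in the table. By gene, 8 of 32 held it, or 25.0%, against 2.60% of 27025 genes. They are Orc1, Cdc6, Cdt1, Pola1, Pold1, Pole2, Rfc3 and Lig1. The CCAAT box, CCAAT on either strand, was in 44.7% of the members' windows and 37.4% of all, and the cell cycle homology element TTTGAA in 15.8% and 17.9%. The windows of 4 genes with a match that rose in WAP-SVT/t glands are shown for its position relative to the start, which is the same in Pola1 and Cdc6 and differs in the others. In addition, 1 window of Orc2 is shown because it has none and the gene did not pass. Capitals mark the E2F motif, and each window is written 5′ to 3′ on the gene's strand.
Pola1 (chrX:93632106-93632405, minus strand): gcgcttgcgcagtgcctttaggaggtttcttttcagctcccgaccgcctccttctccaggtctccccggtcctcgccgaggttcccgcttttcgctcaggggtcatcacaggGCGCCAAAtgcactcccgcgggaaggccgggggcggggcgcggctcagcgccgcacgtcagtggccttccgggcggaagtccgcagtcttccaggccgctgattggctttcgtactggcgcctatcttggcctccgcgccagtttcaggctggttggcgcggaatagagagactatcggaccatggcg
Rfc3 (chr5:151651159-151651458, minus strand): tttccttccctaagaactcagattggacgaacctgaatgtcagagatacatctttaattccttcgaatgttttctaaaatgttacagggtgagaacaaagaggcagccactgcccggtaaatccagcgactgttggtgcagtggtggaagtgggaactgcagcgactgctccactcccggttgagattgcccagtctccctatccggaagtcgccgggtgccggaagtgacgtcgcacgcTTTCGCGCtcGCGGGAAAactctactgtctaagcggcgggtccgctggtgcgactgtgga
Cdc6 (chr11:98907901-98908200, plus strand): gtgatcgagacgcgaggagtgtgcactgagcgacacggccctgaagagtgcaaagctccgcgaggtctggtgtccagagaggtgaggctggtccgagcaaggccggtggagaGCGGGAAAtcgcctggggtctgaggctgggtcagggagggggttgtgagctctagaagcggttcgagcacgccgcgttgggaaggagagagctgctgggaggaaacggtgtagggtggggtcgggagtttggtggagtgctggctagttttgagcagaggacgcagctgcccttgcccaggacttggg
Cdt1 (chr8:122567765-122568064, plus strand): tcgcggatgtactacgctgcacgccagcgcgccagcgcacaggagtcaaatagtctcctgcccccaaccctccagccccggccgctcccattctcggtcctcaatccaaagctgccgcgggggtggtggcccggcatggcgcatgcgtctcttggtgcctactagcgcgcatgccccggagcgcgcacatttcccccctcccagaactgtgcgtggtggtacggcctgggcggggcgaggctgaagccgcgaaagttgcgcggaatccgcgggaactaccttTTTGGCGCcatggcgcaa
Orc2 (chr1:58505060-58505359, minus strand): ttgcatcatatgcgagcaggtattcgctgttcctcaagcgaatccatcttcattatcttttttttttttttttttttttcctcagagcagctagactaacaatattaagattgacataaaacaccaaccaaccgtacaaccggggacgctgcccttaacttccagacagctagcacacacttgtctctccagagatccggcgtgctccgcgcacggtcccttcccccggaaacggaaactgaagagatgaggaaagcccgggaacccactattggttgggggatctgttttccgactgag
The match starts at base -138 in Pola1 and in Cdc6, at base 32 in Cdt1 and at bases -10 and 0 in Rfc3, where 0 is the first transcribed base of the transcript behind the window. In Pola1 and Cdc6 the annotated gene begins upstream of that base, and the match lies inside the annotated gene. A match is a run of letters, and binding was not measured here. Of 24 genes with a window that rose in WAP-SVT/t glands, 6 held the motif, and so did 2 of 6 that did not pass, Orc1 and Pold1.

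WAP-SVT/t glands were set against NMRI glands to see how replication genes differ where the only stated difference is the transgene. Replication genes of every functional class were higher in the transgenic glands. Of 35 members with enough signal to test, 28 rose and 0 fell at an adjusted p under 0.05, against 6.02% of all 7896 genes tested that rose. The filter asked for 3 of the 9 tissue arrays above a signal of 139.9, for all genes alike. A gene low in NMRI glands could thus enter through the other groups alone, as Gmnn did with 84.7, 80.8 and 68.2 in NMRI glands. The count is therefore not independent of the filter. The median log2 difference of the 35 was 2.25, against 0.01 over all genes. In 30 of the 35 all 3 transgenic glands lay above all 3 NMRI glands, as they did in 16.3% of all genes, and in 26 the whole 95% interval lay above a 2-fold rise. The 36th gene, Tyms, was left out by the filter on low values, so that the counts do not speak for it.

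**Figure D1:**
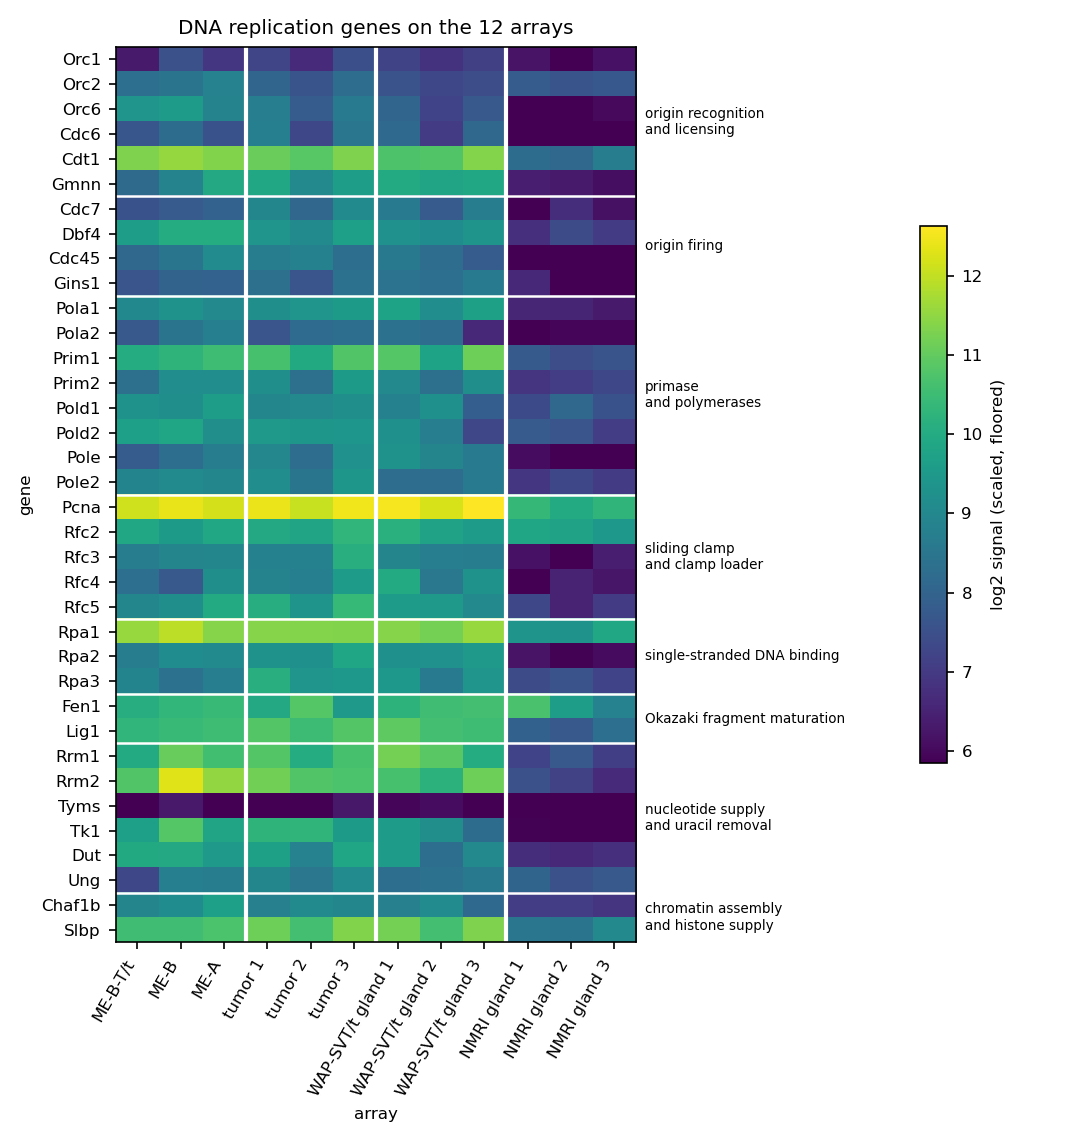
Signals of the 36 genes with a probe set on each of the 12 arrays. Color gives the log2 of the scaled signal, with values under the floor set to it, rows are genes grouped by role and columns are arrays. The 3 columns of NMRI glands are darker than the rest in nearly all rows, while Orc2 and Rfc2 differ little between the glands and Tyms is dark throughout.

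RNA integrity and tissue mixture varied over the arrays. Gapdh controls at the 3-prime end over those at the 5-prime end, a ratio that is high in broken RNA, were between 0.753 and 0.949 in the lines, between 0.969 and 5.63 in tumors, 10.7, 2.49 and 22.5 in WAP-SVT/t glands 1 to 3 and 12.9, 2.28 and 40.3 in NMRI glands 1 to 3. Between the glands numbered 2, which had the lowest ratios, 33 of the 35 genes were higher in the transgenic gland and 30 were so by 2-fold or more, where 10.7% of all genes were. Between the glands numbered 1 the 2-fold count was 31, where 11.3% of all genes were higher by as much. Between those numbered 3 it was 28, where 9.22% of all genes were. Without NMRI gland 3 and WAP-SVT/t gland 3, 28 members rose, where 372 of 7590 genes did. With the log2 Gapdh ratio as a covariate 29 members rose, where 598 of 7896 genes did. Without the 4 gland arrays with a ratio above 10, 1 gland a group was left and 0 members passed in limma. With 1 gland a group a missed threshold does not show equal levels, and the median difference of the 34 members tested was 2.11.

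Markers of other cells moved with the groups too. Mean log2 signals of 11 luminal and lactating epithelium markers were 11.64 to 12.06 in WAP-SVT/t glands and 12.48 to 12.85 in NMRI glands, 3 of 11 fell and none was at the floor on any gland array. Among these Wap, the gene whose promoter drives the transgene, had 6369, 3139 and 1603 in WAP-SVT/t glands, against 16475, 16613 and 14800 in NMRI glands (log2 difference -2.33, adjusted p = 0.00345). For macrophage markers the mean log2 signal was 8.76 to 9.74 in WAP-SVT/t glands and 8.30 to 8.54 in NMRI glands, and 3 of 10 tested rose. Of 4 tested T and NK cell markers 3 fell, with list means of 6.07 to 7.30 in WAP-SVT/t glands and 6.82 to 7.21 in NMRI glands. Skeletal muscle markers stood at 6.61, 6.65 and 10.55 in WAP-SVT/t glands 1 to 3, with 3 of 12 at the floor in each of the first pair, and at 9.46 to 10.43 in NMRI glands, and 0 of 12 passed (3 at an unadjusted p under 0.05). Of 8 fibroblast markers 2 rose, with list means of 10.79 to 11.17 in WAP-SVT/t glands and 10.01 to 10.46 in NMRI glands. Adipocyte list means were 9.81 to 10.50 in WAP-SVT/t glands and 9.25 to 9.70 in NMRI glands. All 5 tested adipocyte markers had higher values in WAP-SVT/t glands, and 0 passed (1 at an unadjusted p under 0.05). Of 4 B cell markers 1 rose, and WAP-SVT/t gland 2 stood apart, with a list mean of 9.18 beside 7.74 and 7.49 in glands 1 and 3, against 7.37 to 7.97 in NMRI glands. In that gland the B cell markers Cd79a and Ms4a1 had 363 and 594 and the T cell marker Cd3d 478, each well above the other transgenic glands. The T and NK cell list mean of 7.30 is also that of gland 2, beside 6.07 and 6.42 in glands 1 and 3. Without WAP-SVT/t gland 2, 27 replication genes rose. The part of these cells in the rise of replication genes was not tested.

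Among the 6 genes of origin recognition and licensing, 4 rose and the median log2 difference was 1.85. Gmnn encodes geminin, which blocks CDT1 once an origin has fired. It had 966, 521 and 783 in tumors and 1015, 896 and 969 in WAP-SVT/t glands, against 84.7, 80.8 and 68.2 in NMRI glands. Every NMRI array was far below every other tissue array. The rise in WAP-SVT/t glands was 12.4-fold (log2 3.63 ± 0.26, adjusted p = 1.04e-05), the highest of the 35 members. Cdt1, the loading factor that geminin binds, rose too, 6.08-fold (log2 2.60 ± 0.26), and its second probe set with signal gave 652, 968 and 569 in WAP-SVT/t glands against 151, 179 and 120 in NMRI glands. Cdc6, a loading ATPase, had 287, 133 and 276 in WAP-SVT/t glands and was at the floor of 57.5 in all 3 NMRI glands, so that its rise was at least 3.81-fold (adjusted p = 0.0129). It no longer passed without WAP-SVT/t gland 1 (adjusted p = 0.0534), without NMRI gland 1 (adjusted p = 0.0504) or without both glands numbered 3 (adjusted p = 0.0865). Orc6, an origin recognition subunit, rose 3.40-fold (adjusted p = 0.00494).

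Orc1 and Orc2, further subunits of the origin recognition complex, did not pass. Orc2 had 191, 158 and 175 in WAP-SVT/t glands, against 226, 195 and 209 in NMRI glands, all 3 transgenic glands below all 3 NMRI glands (log2 difference -0.27, 95% interval -0.80 to 0.27, adjusted p = 0.528). Its other 2 probe sets gave 147, 182 and 164 in WAP-SVT/t glands against 156, 125 and 109 in NMRI glands, and 80.5, 67.2 and 55.4 against 72.7, 69.4 and 79.2, so that they do not share a direction. Orc1, the subunit whose level is known to vary with the cell cycle in human cells, had 151, 115 and 141 in WAP-SVT/t glands, against 74.2, 44.5 and 72.9 in NMRI glands. Those groups did not overlap, but the test narrowly missed (log2 0.99 ± 0.30, adjusted p = 0.0617). With the replicate number as a block, over glands and tumors alike, it passed (adjusted p = 0.0431).

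All 4 origin firing genes on the array rose, with log2 differences between 2.14 and 2.39. Cdc45 had 420, 451 and 317 in tumors and 387, 311 and 225 in WAP-SVT/t glands, against 54.2, 41.6 and 42.5 in NMRI glands. All NMRI arrays were under the floor, so the rise in WAP-SVT/t glands was at least 5.23-fold (adjusted p = 0.000189). Dbf4, the activating subunit of the CDC7 kinase, rose 4.56-fold (adjusted p = 0.000257) and Cdc7 itself 4.42-fold (adjusted p = 0.00333). Gins1, a GINS subunit, rose 5.12-fold, with 98.2, 10.6 and 47.0 in NMRI glands, of which 2 lay under the floor. A fold of a gene with NMRI arrays under the floor depends on that floor.

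Of the 8 primase and polymerase genes 6 rose, with a median of 1.80. Pola1, the catalytic subunit of polymerase alpha, had 602, 673 and 745 in tumors and 878, 580 and 837 in WAP-SVT/t glands, against 94.5, 93.0 and 80.5 in NMRI glands. The transgenic glands lay far above NMRI glands, by 8.44-fold (log2 3.08 ± 0.24, adjusted p = 1.36e-05). Pole, the catalytic subunit of polymerase epsilon, rose 8.31-fold with 2 NMRI glands under the floor, and Pole2, its second subunit, 2.46-fold (adjusted p = 0.0651 without NMRI gland 1). Prim1, the catalytic primase subunit, rose 7.85-fold and its partner Prim2 3.43-fold. The second probe set of Prim1 gave the same picture, with 703, 479 and 1059 in WAP-SVT/t glands against 44.0, 23.5 and 40.6 in NMRI glands.

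WAP-SVT/t gland 3 had the highest Gapdh ratio and the highest muscle markers of the transgenic glands. Of the 35 members it was the lowest transgenic gland in 12 and the highest in 14. Among the polymerase genes Pola2, Pold1, Pold2 and Pole were lowest in it, while Prim1, Prim2 and Pole2 were highest in it. Pola2, the second subunit of polymerase alpha, had 330, 306 and 98.2 in WAP-SVT/t glands, against 17.4, 62.2 and 62.8 in NMRI glands, and rose 3.54-fold (adjusted p = 0.0197). It lost its call without WAP-SVT/t gland 1 or 2 (adjusted p = 0.0770 and 0.0704) and without NMRI gland 1 or 2 (adjusted p = 0.0774 and 0.0636). Pold2, a subunit of polymerase delta, had 606, 432 and 156 in WAP-SVT/t glands, against 220, 197 and 135 in NMRI glands, and did not pass (log2 0.94 ± 0.42, adjusted p = 0.191). The groups overlapped through gland 3 alone, and without it Pold2 passed with a log2 difference of 1.51 (adjusted p = 0.00873). Pold1, the catalytic subunit of polymerase delta, had 458, 609 and 233 in WAP-SVT/t glands, against 166, 277 and 189 in NMRI glands (log2 0.97 ± 0.35, adjusted p = 0.105), and passed without gland 3 (log2 1.36, adjusted p = 0.0153). The part of RNA integrity and of muscle in these values was not tested.

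Of the sliding clamp and its loader, 4 of 5 genes rose and Rfc2 did not. Pcna, the clamp, had 5552, 4227 and 5703 in tumors and 5949, 4768 and 6329 in WAP-SVT/t glands, against 1309, 1012 and 1242 in NMRI glands. Its rise in WAP-SVT/t glands was 4.78-fold (log2 2.26 ± 0.20, adjusted p = 4.39e-05), with little spread within any group. Rfc4 had 475, 440 and 753 in tumors and 1018, 379 and 645 in WAP-SVT/t glands, against 42.6, 90.9 and 75.9 in NMRI glands, a rise of 8.56-fold in the transgenic glands (log2 3.10 ± 0.37, adjusted p = 0.000315). The loader subunits Rfc3 and Rfc5 rose 6.28-fold and 5.32-fold. Rfc2, a subunit of the same complex, had 982, 891 and 1274 in tumors and 1141, 866 and 763 in WAP-SVT/t glands, against 929, 868 and 710 in NMRI glands. All 3 groups overlapped, and the log2 difference between the gland groups was 0.13 with a 95% interval of -0.41 to 0.67 (adjusted p = 0.783), which leaves out a 2-fold change.

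All 3 subunits of the single-strand binding protein RPA rose. Rpa2 had 643, 604 and 933 in tumors and 606, 624 and 719 in WAP-SVT/t glands, against 74.3, 58.6 and 66.4 in NMRI glands, a rise of 9.80-fold in the transgenic glands (log2 3.29 ± 0.24, adjusted p = 1.12e-05). Rpa1, the large subunit, rose 3.69-fold on its chosen probe set, and its other probe set gave 1086, 941 and 817 in WAP-SVT/t glands against 247, 404 and 197 in NMRI glands. Rpa3, the small subunit, rose 3.41-fold. Of the Okazaki fragment genes, Lig1, the DNA ligase, had 1802, 1451 and 1791 in tumors and 1959, 1547 and 1468 in WAP-SVT/t glands, against 247, 215 and 321 in NMRI glands. It rose 6.39-fold in WAP-SVT/t glands (log2 2.68 ± 0.24, adjusted p = 4.00e-05).

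Fen1, the flap endonuclease, depended on the probe set. The brighter one, which stands for the gene, had 1199, 1510 and 1565 in WAP-SVT/t glands, against 1650, 789 and 464 in NMRI glands, and NMRI gland 1 lay above all transgenic glands (log2 0.74 ± 0.44, adjusted p = 0.320). The other gave 1298, 1021 and 621 in WAP-SVT/t glands, against 408, 232 and 263 in NMRI glands, with no overlap, and tested on its own it rose (log2 1.68, adjusted p = 0.00826). In Pold1, Rpa2 and Rrm1 the probe sets also gave different results. The second probe set of Pold1 had 341, 234 and 283 in WAP-SVT/t glands against 26.1, 30.6 and 34.1 in NMRI glands, and rose (log2 2.30). In Rpa2 and Rrm1 the second probe set did not pass (log2 1.19, adjusted p = 0.308, and log2 1.14, adjusted p = 0.240), with WAP-SVT/t gland 3 at 47.5 beside 282 and 383 for Rpa2, and at 136 beside 556 and 529 for Rrm1. Over all 58 probe sets, 48 could be tested on their own, of which 38 rose and 0 fell. The share of all probe sets on the array that rose in that fit is not given here. This count is also not independent of the filter.

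**Figure D2:**
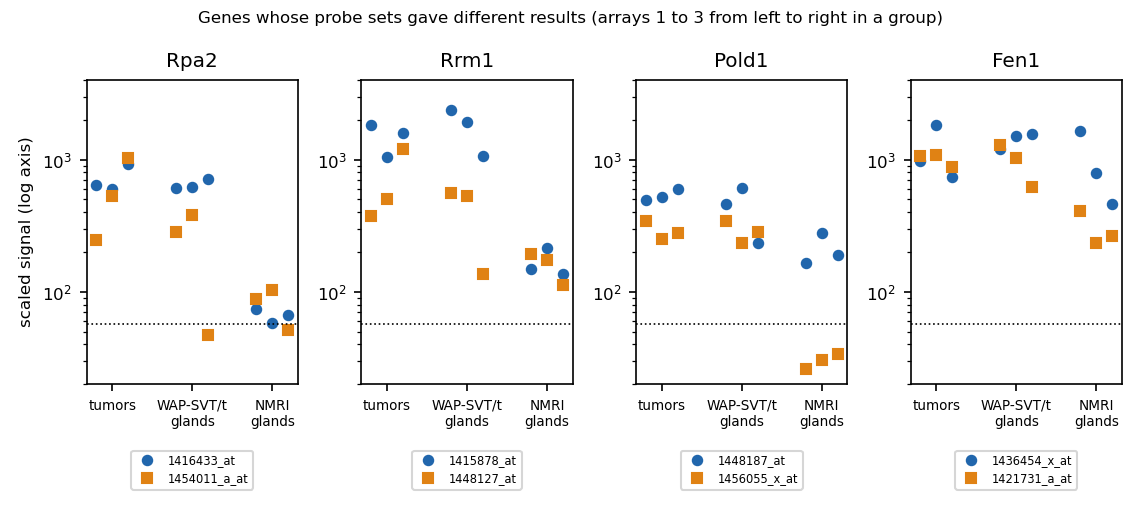
Scaled signal, on a log axis, of both probe sets of Rpa2, Rrm1, Pold1 and Fen1 on the 9 tissue arrays. Circles show the probe set that stands for the gene, squares the other, and the dotted line the floor of 57.5. The squares of WAP-SVT/t gland 3 are low for Rpa2 and Rrm1, the squares of Pold1 separate the glands more than its circles, and a circle of NMRI gland 1 is high for Fen1.

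Genes of nucleotide supply had the largest median of the functional classes, 3.15, with 4 of 5 tested genes higher. Rrm2, the regulated subunit of ribonucleotide reductase, had 2325, 1767 and 1681 in tumors and 1624, 1170 and 2249 in WAP-SVT/t glands, against 186, 145 and 102 in NMRI glands. It rose 11.6-fold in WAP-SVT/t glands (log2 3.53 ± 0.31, adjusted p = 3.48e-05), and its 2 other probe sets also separated the glands, with 828, 669 and 416 in WAP-SVT/t glands against 65.0, 60.7 and 25.7 in NMRI glands, and 1259, 674 and 1076 against 111, 62.0 and 33.9. Rrm1, the large subunit, rose 10.4-fold. Tk1, the thymidine kinase of the S phase salvage pathway, rose 8.90-fold with 2 NMRI glands under the floor, and Dut, which breaks down dUTP, 4.76-fold. Ung, which cuts uracil out of DNA, had 315, 334 and 385 in WAP-SVT/t glands, against 264, 183 and 212 in NMRI glands, and did not pass despite groups that did not overlap (log2 0.66 ± 0.25, adjusted p = 0.117).

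Tyms, thymidylate synthase, could not be tested: none of its 3 probe sets was above the pooled median signal of 139.9 on any array. The brightest of them gave 41.8, 57.3 and 78.3 in tumors and 62.7, 66.8 and 35.9 in WAP-SVT/t glands, against 15.0, 9.24 and 4.33 in NMRI glands. These values lie around the floor and give no fold. Among chromatin assembly and histone supply genes, Slbp, which binds histone messenger RNA, had 2240, 1552 and 2577 in tumors and 2363, 1557 and 2567 in WAP-SVT/t glands, against 365, 350 and 527 in NMRI glands. Its rise in the transgenic glands was 5.20-fold (log2 2.38 ± 0.29, adjusted p = 0.000366). Chaf1b, a subunit of chromatin assembly factor 1, rose 3.22-fold (adjusted p = 0.00232), with WAP-SVT/t gland 3 the lowest transgenic gland at 288.

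**Figure D3:**
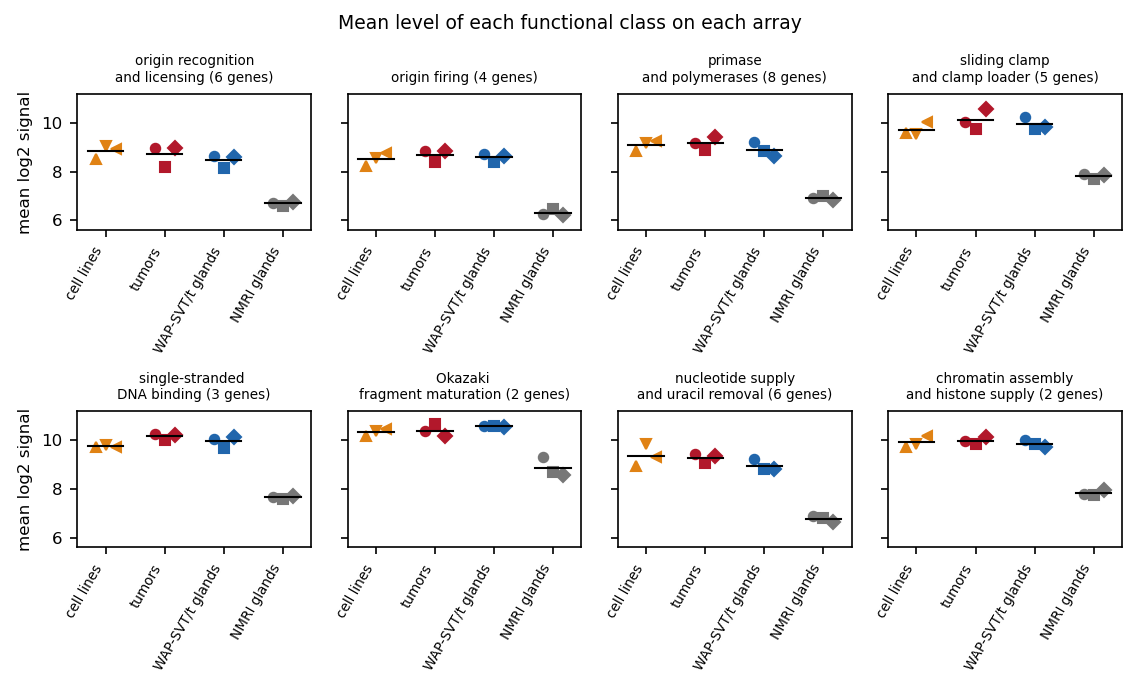
Mean log2 signal of the genes of each functional class on each array, with 1 point per array and a line at the mean of the group. In the tissue groups a circle, a square and a diamond stand for arrays 1, 2 and 3, and among the cell lines the points are ME-B-T/t, ME-B and ME-A from left to right. In all 8 classes the 3 NMRI glands lie under all other arrays.

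Other genes of the pathway, from lists outside the 38, varied in how many rose. All 7 tested MCM helicase genes rose in WAP-SVT/t glands, with a median log2 difference of 2.88, among them Mcm5 (log2 4.22 ± 0.34) and Mcm4 (log2 2.66 ± 0.24). Of 31 further replication genes, such as topoisomerases and replication fork proteins, 15 rose with a median of 1.01, led by Uhrf1 (log2 3.95 ± 0.21), which keeps DNA methylation at the fork, and Top2a (log2 4.28 ± 0.25), a topoisomerase. Of 14 G1/S regulators 6 rose with a median of 1.14, with the smallest p in Rbl1 (log2 2.48 ± 0.22), an RB relative, and Ccna2 (log2 3.30 ± 0.31), which encodes cyclin A2. Of 19 mitosis genes 18 rose with a median of 3.06, with the smallest p in Kif23 (log2 3.52 ± 0.22), a kinesin of cell division, and next in Cdc20 (log2 4.15 ± 0.28) and Ccnb2 (log2 3.67 ± 0.25), which were tied. All NMRI arrays of Kif23 and Ccnb2 were at the floor, so that their differences are lower bounds. None of 9 housekeeping genes passed in limma (4 at an unadjusted p under 0.05), and their median was -0.18.

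Tumors were then set against WAP-SVT/t glands, which carry the same transgene. In limma 0 of 35 members passed (5 at an unadjusted p under 0.05), where 2.94% of 7896 genes passed in either direction and 1285 had an unadjusted p under 0.05. The median difference was 0.19, against -0.00 over all genes, and 24 of 35 were above 0. A missed threshold does not show equal levels: in 19 of 35 genes the 95% interval lay within 2-fold in both directions, and in the others it did not. The bounds ran from -1.35 for Fen1 to 1.95 for Pold2.

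The 4 members with the smallest p in that comparison had higher values in tumors. Tk1 had 1230, 1238 and 743 in tumors, against 769, 583 and 305 in WAP-SVT/t glands (log2 1.02, 95% interval 0.27 to 1.77, adjusted p = 0.164). Pold2 had 722, 696 and 676 in tumors, against 606, 432 and 156 in WAP-SVT/t glands (log2 1.02, 95% interval 0.08 to 1.95, adjusted p = 0.264). Only Pold2 and Orc2 of the 35 had groups that did not overlap, both with tumors higher. Over all genes 8.78% lay apart in that direction, so the 2 genes do not stand out by it. Orc6 had 427, 225 and 399 in tumors, against 267, 148 and 212 in WAP-SVT/t glands (log2 0.73, 95% interval 0.03 to 1.43, adjusted p = 0.284). Pole2 had 574, 355 and 692 in tumors, against 309, 307 and 396 in WAP-SVT/t glands (log2 0.64, 95% interval 0.02 to 1.25, adjusted p = 0.287). The tumors also varied among themselves: tumor 2 was the lowest of the 3 in 25 of 35 genes and tumor 3 the highest in 22. Mean log2 signals over the 36 genes were 9.47, 9.12 and 9.58 in tumors 1 to 3, against 9.40, 9.03 and 9.13 in WAP-SVT/t glands 1 to 3. Beside this, all 6 basal, 4 of 5 adipocyte and 4 of 11 luminal markers fell in tumors. Mean log2 signals there were 6.45 to 7.07 in tumors against 8.73 to 9.05 in WAP-SVT/t glands for basal markers, 6.68 to 8.66 against 9.81 to 10.50 for adipocyte markers and 9.89 to 10.85 against 11.64 to 12.06 for luminal markers. Their part in the comparison of replication genes was not tested.

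Against NMRI glands, the tumors had 32 of 35 members higher and 0 lower, where 12.9% of all genes rose, with a median log2 difference of 2.35. This comparison uses the same 3 NMRI arrays as that of the WAP-SVT/t glands, so that the counts are not independent. The limit of the filter given there holds here too. The 4 members that passed here and not in WAP-SVT/t glands were Orc1 (log2 1.05 ± 0.30, adjusted p = 0.0264, and up to 0.103 without 1 of tumors 1 and 3 or NMRI glands 1 to 3), Pold1 (log2 1.38 ± 0.35, adjusted p = 0.0143), Pold2 (log2 1.95 ± 0.42, adjusted p = 0.00726) and Ung (log2 1.11 ± 0.25, adjusted p = 0.00783). Pold1 no longer passed without NMRI gland 1 (adjusted p = 0.0602), with the Gapdh covariate (adjusted p = 0.112) or without the 4 arrays with a high Gapdh ratio (adjusted p = 0.148). Pold2 did not pass with the covariate (adjusted p = 0.0585), nor Ung without those 4 arrays (adjusted p = 0.0926). Orc2 (log2 0.27, adjusted p = 0.454), Rfc2 (log2 0.32, adjusted p = 0.374) and Fen1 (log2 0.37, adjusted p = 0.582) passed in neither on the probe set that stands for the gene. The other Fen1 probe set had 1072, 1080 and 879 in tumors against 408, 232 and 263 in NMRI glands. Tested on its own it rose (log2 1.79, adjusted p = 0.00308). With all probe sets of a gene averaged, Fen1 passed in tumors as well (log2 1.08, adjusted p = 0.0393). The highest values were those of Tk1 at 18.0-fold, Rrm2 at 13.6-fold and Rpa2 at 10.8-fold. Markers of several cell types moved in this comparison. All 6 basal, all 5 adipocyte, 7 of 11 luminal, 3 of 4 T and NK cell, 3 of 5 endothelial and 2 of 12 muscle markers fell in tumors, and 5 of 10 macrophage markers rose. For adipocyte markers the mean log2 signal was 8.66, 6.79 and 6.68 in tumors 1 to 3, against 9.25 to 9.70 in NMRI glands. Basal cell markers stood at 6.45 to 7.07 in tumors, against 8.59 to 9.18 in NMRI glands, and luminal markers at 9.89 to 10.85 against 12.48 to 12.85. Muscle markers stood at 9.73 in tumor 1 but at 6.03 and 5.92 in tumors 2 and 3, against 9.46 to 10.43 in NMRI glands. Their part in these differences was not tested.

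**Figure D4:**
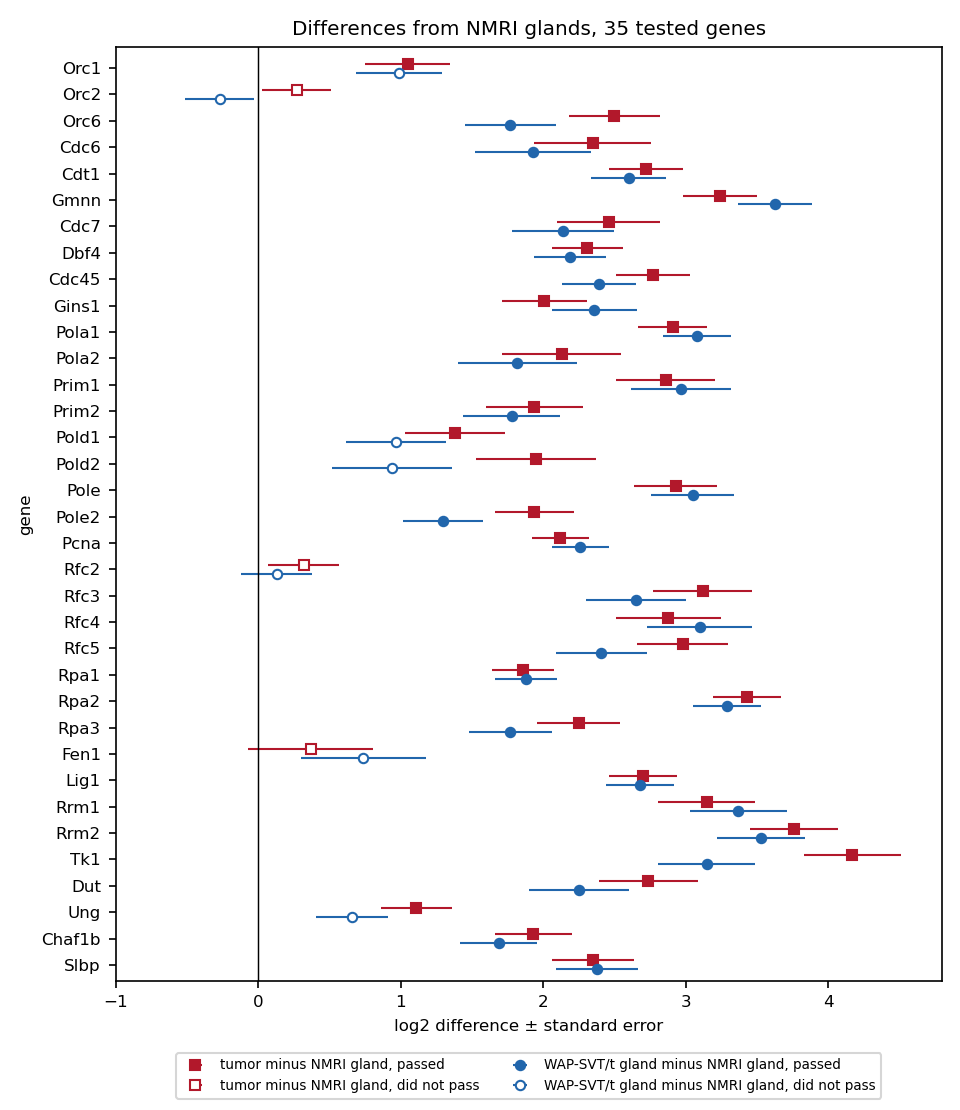
Log2 differences of the 35 tested genes from NMRI glands, with standard errors, for tumors (squares) and WAP-SVT/t glands (circles). Filled symbols passed at an adjusted p under 0.05 and open ones did not. Orc2, Rfc2 and Fen1 have open symbols in both comparisons, while Rrm2, Gmnn, Rpa2 and Tk1 are among those farthest to the right.

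The 3 cell lines, set against the 3 tumors as a class, had no replication gene that passed. The lines differ from each other and have 1 array each, so they are not replicates of a condition. The spread behind the p-values and intervals here is that between lines, and no single line is described by them. In limma 0 of 35 members passed (3 at an unadjusted p under 0.05), where 2.39% of 7327 genes passed and 1221 had an unadjusted p under 0.05, and the median difference was -0.14. In 16 of 35 genes the 95% interval lay within 2-fold in both directions. Rpa3 had 479, 334 and 430 in ME-B-T/t, ME-B and ME-A, against 1089, 665 and 703 in tumors, all lines below all tumors (log2 -0.96, 95% interval -1.63 to -0.30, adjusted p = 0.155). Cdc7 had 188, 220 and 254 in the lines in the same order, against 500, 269 and 540 in tumors, again without overlap (log2 -0.93, 95% interval -1.70 to -0.15, adjusted p = 0.230). Orc6 had 671, 780 and 475 in the lines, against 427, 225 and 399 in tumors, with every line above every tumor (log2 0.90, 95% interval 0.11 to 1.69, adjusted p = 0.250). Of the 35 members, 4 had all lines above all tumors and 3 had all lines below. Over all genes 1711 of 7327 lay apart in either direction, so these members do not stand out by it. Dbf4 had 794, 1059 and 1048 in the lines, against 673, 541 and 820 in tumors (log2 0.52, 95% interval -0.06 to 1.10, adjusted p = 0.349). Cdc7 and Dbf4 are partners in 1 kinase, but neither passed and the Dbf4 interval spans both signs. The opposite signs of their differences thus do not show that the partners diverge.

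Markers of other cells differed between the lines and the tumors, not all in 1 direction. All 10 tested macrophage markers fell in the lines, to mean log2 signals of 6.23 to 6.31, against 9.36 to 9.68 in tumors, and 2 of 3 endothelial markers fell. Of 8 fibroblast markers 3 fell and 3 had higher values without passing. Their list means were 9.43 in ME-B-T/t, 8.59 in ME-B and 6.31 in ME-A, against 9.53 to 11.10 in tumors. Among them Vim had 10765 in ME-B-T/t, 11490 in ME-B and 482 in ME-A, against 2455 to 3274 in tumors. The 2 tested basal markers had log2 differences of 0.32 and 1.02 and did not pass. For luminal markers the mean log2 signal was 6.25 in ME-B-T/t, 6.65 in ME-B and 10.11 in ME-A, against 9.89 to 10.85 in tumors, so that ME-A lay within the tumor range. In limma 0 of 8 tested luminal markers passed (4 at an unadjusted p under 0.05). In ME-B-T/t and in ME-B 5 of 11 were at the floor, among them the defining genes Epcam, at 13.2 in ME-B-T/t and 9.05 in ME-B, and Krt18, at 55.0 and 40.5. The part of this in the differences from the tumors was not tested.

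**Figure D5:**
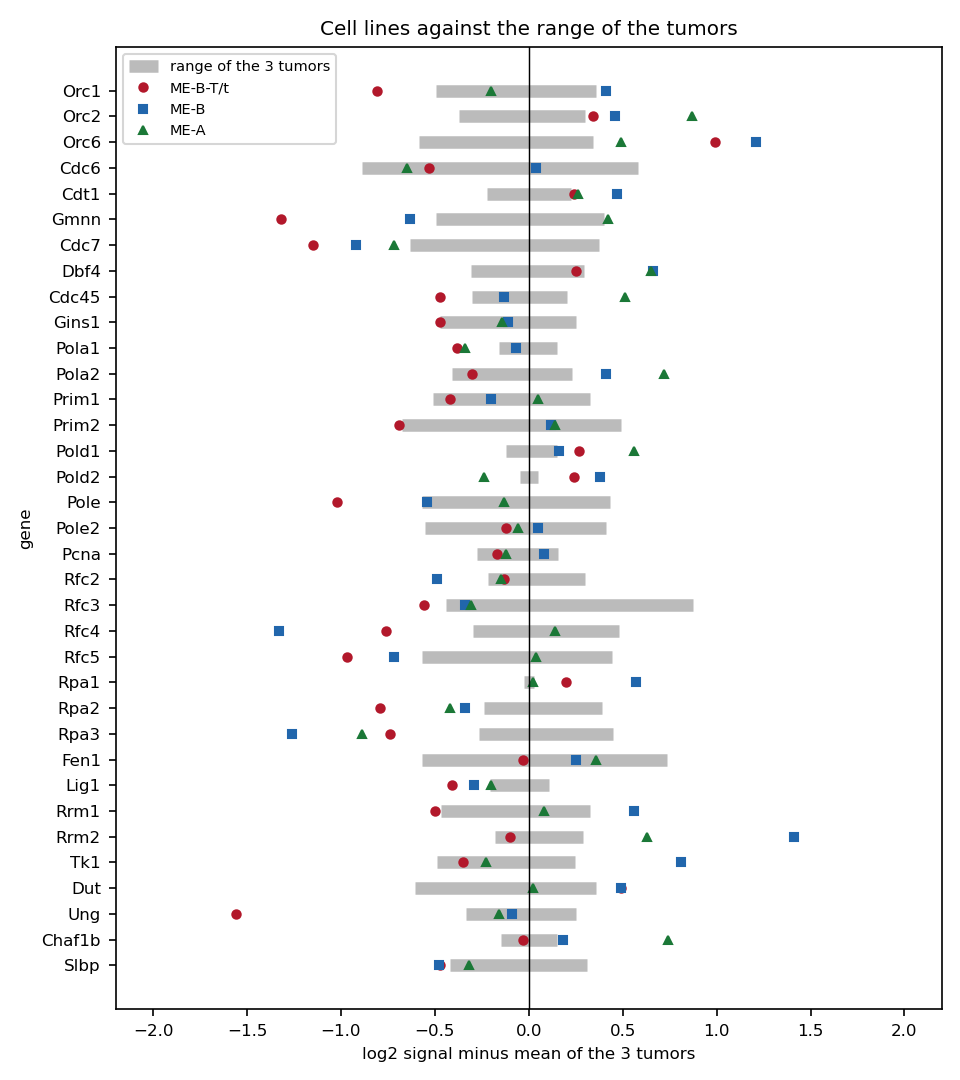
Log2 signal of each of the 35 tested genes in the lines ME-B-T/t (circles), ME-B (squares) and ME-A (triangles) minus the mean of the 3 tumors, with a gray bar for the range of the tumors. In ME-B-T/t 16 genes lie below the tumor range, in ME-B 9 and in ME-A 5, while 7, 14 and 10 lie above it. The share of all genes outside the range was not computed, so these counts do not show a shift particular to the 35 genes.

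Between the lines there was 1 array each, so that no difference has a replicate check and no test was made. No member differed by 4-fold or more in any pair. Of 7925 genes with signal in a line, 1.73% did so between ME-B-T/t and ME-B, 7.27% between ME-B and ME-A and 7.82% between ME-B-T/t and ME-A. A lower limit of 2-fold, chosen after the values were seen, was passed by 5 members between ME-B-T/t and ME-B, all lower in ME-B-T/t, where 12.5% of all genes passed it in either direction and 5.03% were lower by it. Rrm2 had 1773 in ME-B-T/t and 5049 in ME-B, and its other probe sets had 1587 against 3002 and 1149 against 3507. Ung had 160 in ME-B-T/t and 440 in ME-B, Orc1 80.1 and 186, and Tk1 817 and 1824. Rrm1 had 1027 in ME-B-T/t and 2136 in ME-B, but 1294 and 1528 on its other probe set. Over all 35 genes 29 were lower in ME-B-T/t than in ME-B, with a median of -0.25, against 0.03 over all genes.

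Between ME-B and ME-A, where 19.9% of all genes differed by 2-fold or more, 3 members did: Tk1 had 1824 in ME-B and 890 in ME-A, Rfc4 had 214 and 595, and Gmnn had 473 and 980. The other Rfc4 probe set showed the same direction, with 152 in ME-B and 513 in ME-A. Between ME-B-T/t and ME-A the share of all genes was 24.1%, and 929 of 7925 genes were lower in ME-B-T/t by as much. Of the members 4 were lower in ME-B-T/t by this limit: Gmnn with 293 against 980, Ung with 160 against 420, Pola2 with 215 against 436 and Rfc5 with 499 against 1009. Rrm2, with 5049 in ME-B and 2944 in ME-A, was above the tumors in both, which had 1681 to 2325. The median over the 35 genes was -0.02 between ME-B and ME-A and -0.38 between ME-B-T/t and ME-A.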

How the data were processed

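RNA of 12 samples was hybridised to single-color arrays. The deposited intensity of each probe set is linear and came from MAS5, per the submitters' processing notes, in a version not stated there. From the deposited intensities, each array was scaled to a common mean, trimmed by 2% at both ends (the deposited means lay within 1.19-fold), values below 57.5, the 30th percentile over all arrays, were raised to it as a floor, and log2 was computed. On each array 67.7% to 72.6% of probe sets exceeded it. The small number of arrays limits the precision.

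Probe sets were named through the platform's table and RefSeq symbols: 20380 named 1 gene, 691 several and 1555 none, and 64 controls were left out. A probe set shared by Tyms and a pseudogene was not used. A gene was represented by its brightest probe set (mean log2 over arrays), and was tested where 3 or more arrays exceeded 139.9, the median of all values. Genes were tested, two-sided, with limma 3.58.1 in R 4.3.3 (lmFit, eBayes with an intensity trend), with Benjamini-Hochberg adjustment over all genes. The 9 tissue arrays were 1 fit with 6 residual degrees of freedom, lines against tumors another with 4. A ± beside a log2 difference is its standard error (n = 3 arrays a group), and folds where all arrays of a group lay at the floor are lower bounds. The analysis was tested on simulated data. Figures were drawn with matplotlib 3.10.9.

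The members and lists were chosen with earlier results of these data known. All members could be named. Values on every array are given for the largest difference between WAP-SVT/t and NMRI glands in each role, members not called there, and the 4 smallest p of the 2 other comparisons, and the 2 smallest p of each other list are named. A few further values were added after they were seen.

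Gland samples share numbers across groups. Over 7896 genes, deviations of same-numbered WAP-SVT/t and NMRI glands correlated at 0.22, 0.37 and 0.38, each over 0.1, so the numbers were treated as pairs in a further fit. Tumors and WAP-SVT/t glands of the same number correlated at -0.17, 0.33 and -0.10. The further fit nevertheless put the tumors in the same blocks by number, a pairing these values do not show. Promoter windows came from RefSeq, GRCm38.p6.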

Additional observations from a re-analysis of the deposited data

How the results depend on the processing

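Counts of members that passed kept their direction under all settings run. Between WAP-SVT/t and NMRI glands the count was 28, and 26 to 30 under 12 planned settings (signals as deposited, quantile normalization, other floors, filters and probe set rules, the replicate block and the like). It was 25 to 30 with 1 array left out, and the added setting without the 4 gland arrays with a Gapdh ratio above 10 gave 0 in limma, with 1 gland a group and fewer genes tested. Between tumors and WAP-SVT/t glands it was 0 under all settings run, also with 1 array left out. Between tumors and NMRI glands it was 32, 31 to 33 under planned settings, 30 to 32 with 1 array left out and 25 without those 4 arrays. Between lines and tumors it was 0 throughout. No member differed by 4-fold between lines under any setting run. With the replicate block the counts were 29, 0 and 32. The block pairs the gland numbers but also ties the tumors to the glands by number, a pairing the correlations do not show. Apart from Orc1, which then passed in WAP-SVT/t glands, the block changed no call between the glands. Unscaled, the median of all genes moved to 0.11 between WAP-SVT/t and NMRI glands and to 0.10 between tumors and NMRI glands. Fen1 (log2 1.21, adjusted p = 0.0479) and Pold1 (log2 1.63, adjusted p = 0.00102) passed between the glands when all probe sets of a gene were averaged. Cdc6 (log2 1.27, adjusted p = 0.0673) and Pola2 (log2 1.24, adjusted p = 0.0802) did not with the floor at the 40th percentile. The cause of these shifts was not tested.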

Other observations

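The 38 genes lie on 15 chromosomes. Chromosome 5 holds 9 of them, or 23.7%, against 6.23% of the named genes on the array. These are Cdc7, Dbf4, Pole, Rfc2, Rfc3, Rfc5, Tyms, Ung and Slbp, and they do not share a pattern between WAP-SVT/t and NMRI glands: Cdc7, Dbf4, Pole, Rfc3, Rfc5 and Slbp rose, Rfc2 and Ung did not pass and Tyms was not tested.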
